A study of Sorghum bicolor with 24 samples.

Results

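Cytokinins are plant hormones that promote cell division and shoot growth and hold back root growth, and their level in a tissue depends in part on how fast they are broken down. Cytokinin oxidase/dehydrogenase enzymes cleave the side chain of cytokinins irreversibly, and in plants they are encoded by a small gene family whose members differ in where and when they are expressed. Glucosyltransferases inactivate cytokinins in another way, by adding a sugar, and type-A response regulators are early targets of cytokinin signalling. The genes described here are the 3 gene models that the study lists for the degradation of cytokinins in sorghum, Sb03g036160, Sb09g018640 and Sb07g022530, of 34145 gene models in the tables. The study's supplement describes Sb09g018640 as similar to the rice gene Os05g0374200 and Sb07g022530 as similar to an uncharacterized protein, and the enzyme activity of the 3 gene products was not measured here.

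The measurements are RNA-Seq libraries from roots and shoots of 9-day-old seedlings of Sorghum bicolor genotype BTx623, grown in hydroponics on a half-strength nutrient solution. For 27 h from day 8 on, plants received 20 µM abscisic acid (ABA), a stress hormone that was dissolved in NaOH; NaOH alone, the control of ABA; 20% PEG-8000, a polymer that withholds water from the root and so imposes osmotic stress; or H2O, the control of PEG. Roots and shoots of 1 treatment came from the same plants, and different treatments used different plants. Each of the 8 groups of tissue and treatment had 3 libraries, 1 for each of 3 hydroponic experiments (replicates 1 to 3), and each library pooled the RNA of 3 buckets of 10 plants, so the spread between libraries is a spread between experiments and not between plants. Because these are whole roots and shoots, fewer cells of a type and less RNA per cell cannot be told apart.

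The 24 libraries held 12891722 to 22840499 reads on genes, with a median of 15352184. As a check of the tissue labels, 9 photosynthesis genes (a Rubisco small subunit gene and 8 chlorophyll a-b binding protein genes) together reached 13344 to 40745 RPKM in shoots and 4.85 to 32.7 RPKM in roots. RPKM, as the authors deposited it, is the abundance of a gene scaled to its exon length and to the size of the library. The 1 root marker at hand, the nitrate transporter gene Sb06g020180, did not separate the tissues, at 0.488 to 4.37 RPKM in roots and 0.808 to 2.99 RPKM in shoots. The photosynthesis genes were also lower in treated shoots, with 13344 to 17203 RPKM in ABA shoots against 35540 to 40745 RPKM in NaOH shoots, and 18228 to 23550 RPKM in PEG shoots against 35546 to 36456 RPKM in H2O shoots. Their part in the shoot results below was not tested.

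Sb03g036160 lies on chromosome 3 from 64199639 to 64203176 (assembly sbi1, annotation Sbi1.4), with 1647 bases of exon. Sb09g018640 lies on chromosome 9 from 46593685 to 46595638, with 1569 bases of exon, and Sb07g022530 on chromosome 7 from 57125192 to 57128156, with 1563 bases of exon. The models differ little in exon length, and 99.4% of the models of their annotation class have a length that is a multiple of 3, so these are read as coding lengths. All 3 passed the filter on low counts that left 22667 genes for the tests.

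The 3 genes differed in level. Sb07g022530 was the most abundant in all but the PEG shoots, with group means of 3.56 to 12.4 RPKM. Sb09g018640 had group means of 0.651 to 4.31 RPKM, and Sb03g036160 had 0.244 to 1.23 RPKM in every group but PEG shoots, where it reached 5.46 ± 2.57 RPKM (SD, n = 3). In H2O shoots Sb03g036160 was represented by only 5, 5 and 13 reads. At 5 reads the 95% Poisson interval runs from 1.62 to 11.7 reads, which covers counting error only, so low values of this gene are imprecise. Set against the tested genes by mean RPKM, Sb07g022530 stood above 59.4% of them in ABA roots and 31.7% in NaOH roots, whereas Sb03g036160 stood above 43.3% in PEG shoots and 9.62% in H2O shoots.

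**Figure D1:**
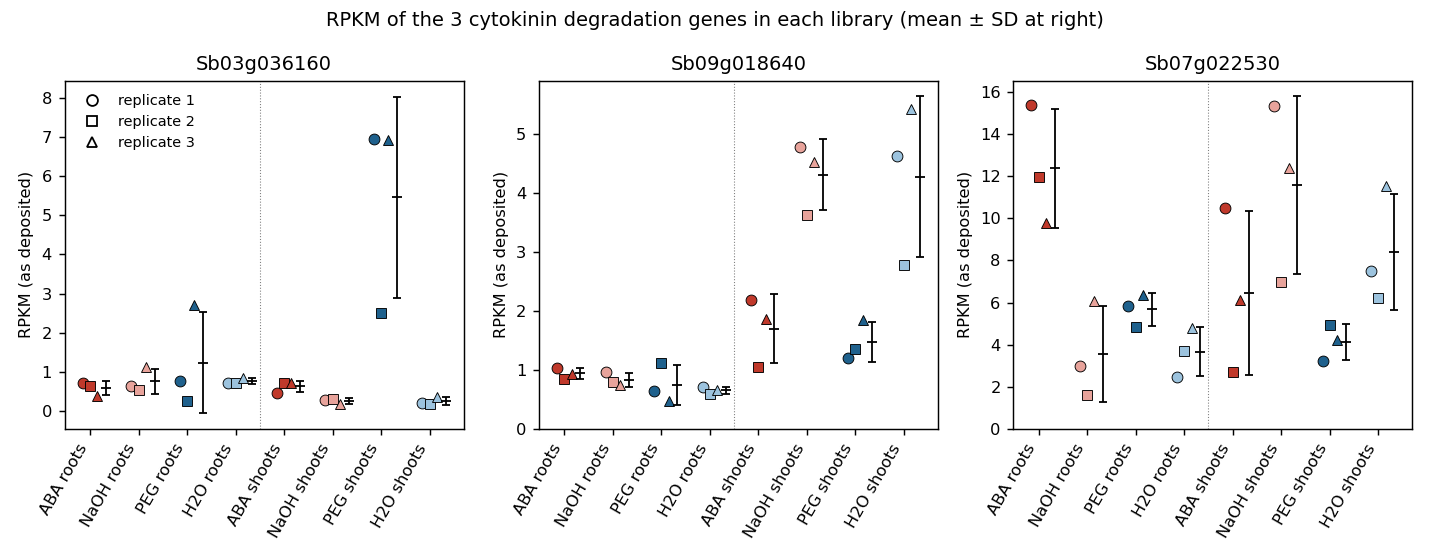
RPKM of the 3 genes (vertical axes, 1 panel each, linear scale) in the 8 groups, with a marker per library (circle, square and triangle for replicates 1, 2 and 3) and the mean ± SD of 3 libraries to the right of them. Sb03g036160 is at 2.50 to 6.96 RPKM in PEG shoots and at no more than 0.354 RPKM in H2O shoots, and Sb07g022530 is at 9.79 RPKM or above in all 3 ABA roots libraries.

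The first question is where each gene is expressed without stress, for which H2O roots were compared with H2O shoots and NaOH roots with NaOH shoots. The study listed these genes after comparing PEG shoots with H2O shoots, so the H2O shoots libraries took part in choosing them. The H2O pair is therefore given as a description with no p, and the NaOH pair, which shares no library with that choice, is tested. Sb09g018640 and Sb07g022530 were lower in roots than in shoots in both control pairs, and Sb03g036160 tended the other way without passing the test. Sb09g018640 had 0.702, 0.594 and 0.657 RPKM in H2O roots (replicates 1, 2 and 3), against 4.63, 2.77 and 5.42 RPKM in H2O shoots. In NaOH roots it had 0.966, 0.786 and 0.748 RPKM, against 4.77, 3.63 and 4.53 RPKM in NaOH shoots. The groups did not overlap in either pair. After scaling of the libraries by TMM (a factor per library that holds most genes level), the log2 fold change of roots over shoots was -3.32 (SE 0.32) in H2O and -3.00 (SE 0.32, adjusted p = 4.64e-08) in NaOH, by the quasi-likelihood test of edgeR, the test used throughout, with p-values adjusted over all tested genes by the Benjamini-Hochberg method.

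Sb07g022530 had 2.47, 3.69 and 4.80 RPKM in H2O roots, against 7.48, 6.22 and 11.5 RPKM in H2O shoots. In NaOH roots it had 2.99, 1.62 and 6.08 RPKM, against 15.3, 6.99 and 12.4 RPKM in NaOH shoots. Again the groups did not overlap, although the NaOH roots of replicate 3 came close to the NaOH shoots of replicate 2. The log2 fold change of roots over shoots was -1.79 (SE 0.45) in H2O and -2.28 (SE 0.45, adjusted p = 0.000173) in NaOH. The NaOH value was -2.96 without the NaOH roots library of replicate 3, which has the highest level of its group.

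Sb03g036160 had 0.711, 0.708 and 0.851 RPKM in H2O roots, against 0.195, 0.183 and 0.354 RPKM in H2O shoots, and 0.626, 0.524 and 1.12 RPKM in NaOH roots, against 0.282, 0.307 and 0.167 RPKM in NaOH shoots. The RPKM of roots was above that of shoots in every control library, but the log2 fold change of 0.997 in NaOH (SE 0.68, edgeR adjusted p = 0.205) did not pass the test, and that in H2O was 0.99 (SE 0.69). A gene was called where its adjusted p was under 0.05, its log2 fold change was at least 1 in size and its median sequencing depth (aligned bases over exon length) was at least 2-fold in 1 of the groups. By this rule 2 of the 3 genes were called in each control pair, while 35.3% of the tested genes were called in the H2O pair and 35.7% in the NaOH pair, and nothing is read from the count in the H2O pair. The median depth of Sb03g036160 was at most 0.607 outside PEG shoots and that of Sb09g018640 was 0.51 to 0.829 in roots, so neither could be called where only those groups were compared, but without the depth limit no further member was called in any comparison. The differences between effects given below were called without the depth limit. Their shares of called genes therefore follow a looser rule than those of the pairs of groups.

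The scaling matters for roots against shoots. TMM factors were 1.17 to 1.27 in roots and 0.74 to 0.95 in shoots, and with library sizes alone the median log2 fold change of all tested genes, which was 0.10 with TMM, was 0.73 in the H2O pair and 0.78 in the NaOH pair. On that scale Sb09g018640 still had log2 fold changes of -2.68 in H2O and -2.33 in NaOH, and Sb07g022530 of -1.16 and -1.63, so both kept their direction.

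The control solutions were also compared. In roots the log2 fold change of NaOH over H2O was 0.04 (SE 0.59) for Sb03g036160, 0.35 (SE 0.34) for Sb09g018640 and -0.01 (SE 0.45) for Sb07g022530. In shoots it was 0.03 (SE 0.78) for Sb03g036160, 0.03 (SE 0.28) for Sb09g018640 and 0.48 (SE 0.43) for Sb07g022530. NaOH was the higher one in 3 of 3 experiments for Sb09g018640 in roots and for Sb07g022530 in shoots. Of the 3 genes, 0 were called in NaOH roots against H2O roots and 0 in NaOH shoots against H2O shoots, and edgeR called 0% of all tested genes in either comparison. No member had an unadjusted p under 0.05, that is 0 of 3 in each tissue, with edgeR, DESeq2, limma or the exact test. Over all tested genes, edgeR gave 360 genes with an unadjusted p under 0.05 in roots and 567 in shoots. By the same call, DESeq2 named 0 genes in either tissue, limma on log2(RPKM + 1) named 1 in roots and 0 in shoots, and the exact test with library sizes alone named 86 in roots and 11 in shoots.

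ABA against its NaOH control raised 1 of the 3 genes in roots. Sb07g022530 rose in ABA roots, with 15.4, 12.0 and 9.79 RPKM, against 2.99, 1.62 and 6.08 RPKM in NaOH roots. The lowest ABA library was above the highest NaOH library. The reads behind these values were 309 to 385 in ABA roots and 41 to 243 in NaOH roots. The log2 fold change was 1.70 (SE 0.45, adjusted p = 0.0058), a 3.24-fold higher level, and ABA was higher in 3 of 3 experiments.

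The size of this rise differed between experiments. Taken within an experiment, the log2 ratio of ABA roots to NaOH roots was 2.31 in replicate 1, 2.86 in replicate 2 and 0.57 in replicate 3. All libraries of replicate 3 were processed with the later RTA version 1.6 of the base caller. With the RTA version as a term the log2 fold change was 1.76 (adjusted p = 0.00468, edgeR). Without replicate 1 it was 1.39 with an adjusted p of 0.105 in edgeR, so the call was lost with 2 libraries a group, and without the NaOH roots library of replicate 3 it was 2.38.

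The other members were not called in ABA roots. Sb09g018640 had 1.04, 0.848 and 0.932 RPKM in ABA roots, against 0.966, 0.786 and 0.748 RPKM in NaOH roots, and the groups overlapped (log2 fold change 0.12, SE 0.33, edgeR adjusted p = 0.832). Sb03g036160 had 0.722, 0.625 and 0.381 RPKM in ABA roots, against 0.626, 0.524 and 1.12 RPKM in NaOH roots, where the single high value is again the NaOH library of replicate 3 (log2 fold change -0.52, SE 0.61, edgeR adjusted p = 0.568). Thus 1 of 3 genes was called in ABA roots, where 13.6% of the tested genes were called.

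In shoots the picture was different, with 1 of the 3 genes called, in the downward direction. Sb09g018640 fell in ABA shoots, with 2.19, 1.04 and 1.86 RPKM, against 4.77, 3.63 and 4.53 RPKM in NaOH shoots. No library of ABA shoots reached the lowest of NaOH shoots. The log2 fold change was -1.47 (SE 0.29, edgeR adjusted p = 0.00117), a level 2.77-fold lower in ABA shoots. ABA was lower in 3 of 3 experiments, with log2 ratios of -1.26, -1.83 and -1.45 in replicates 1, 2 and 3. The NaOH shoots library of replicate 2 was base-called apart from the others of its experiment, and without it the log2 fold change was -1.58 (edgeR adjusted p = 0.00176).

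Sb07g022530 had 10.5, 2.69 and 6.13 RPKM in ABA shoots, against 15.3, 6.99 and 12.4 RPKM in NaOH shoots. ABA was the lower one within each of the 3 experiments, but the groups overlapped, and the log2 fold change of -0.98 (SE 0.43, edgeR adjusted p = 0.116) was not called. Without the ABA shoots library of replicate 1, the highest of its group, the value was -1.49 with an adjusted p of 0.0365 in edgeR. That omission keeps the NaOH shoots library of replicate 1, also the highest of its group. With a whole replicate left out, the value was -1.25 to -0.87, with adjusted p of 0.151 to 0.367 in edgeR, and was not called. Sb03g036160 had 0.456, 0.71 and 0.699 RPKM in ABA shoots, against 0.282, 0.307 and 0.167 RPKM in NaOH shoots. Here the groups did not overlap and ABA was the higher one in 3 of 3 experiments, but only 12 to 28 reads in ABA shoots and 6 to 12 reads in NaOH shoots stand behind the log2 fold change of 1.19 (SE 0.69, edgeR adjusted p = 0.238), which was not called. Among all tested genes, 7.17% were called in ABA shoots.

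**Figure D2:**
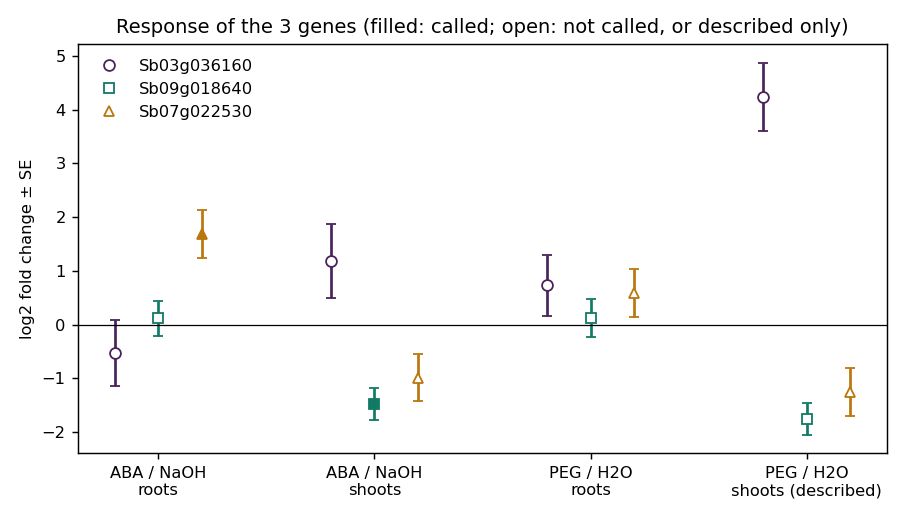
Log2 fold change ± SE (vertical axis, from the edgeR fit) of the 3 genes for ABA over NaOH and PEG over H2O in roots and shoots. Filled symbols are called, open symbols are not called, and the PEG shoots values are all drawn open because they are a description; Sb07g022530 is at 1.70 in ABA roots, Sb09g018640 at -1.47 in ABA shoots and Sb03g036160 at 4.24 in PEG shoots.

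The effect of ABA in roots was next set against its effect in shoots, by the interaction term of the same fit. The log2 difference between the effects, roots minus shoots, was 2.68 (SE 0.62, edgeR adjusted p = 0.00585) for Sb07g022530 and 1.59 (SE 0.44, edgeR adjusted p = 0.0195) for Sb09g018640, and it was positive in 3 of 3 experiments for both. Sb03g036160 had a difference of -1.71 (SE 0.92, edgeR adjusted p = 0.252). So 2 of 3 genes were called, where 9.56% of the tested genes were called for this interaction. Both calls were lost without replicate 1, with differences of 2.64 and 1.75 and adjusted p of 0.0844 and 0.15 in edgeR, and that of Sb09g018640 also without replicate 3 (1.55, adjusted p = 0.164).

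Osmotic stress was compared as PEG against H2O. In roots 0 of the 3 genes were called, where 3.49% of the tested genes were called, and 0 of 3 had an unadjusted p under 0.05 in edgeR, DESeq2 or limma, against 2 of 3 in the exact test with library sizes alone. Sb07g022530 had 5.84, 4.82 and 6.37 RPKM in PEG roots, against 2.47, 3.69 and 4.80 RPKM in H2O roots. PEG roots were above H2O roots in 3 of 3 experiments, and the lowest PEG library was just above the highest H2O library (log2 fold change 0.60, SE 0.45, edgeR adjusted p = 0.546). Sb09g018640 had 0.637, 1.12 and 0.471 RPKM in PEG roots, against 0.702, 0.594 and 0.657 RPKM in H2O roots (log2 fold change 0.13, SE 0.35, edgeR adjusted p = 0.916).

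Sb03g036160 had 0.759, 0.248 and 2.69 RPKM in PEG roots, against 0.711, 0.708 and 0.851 RPKM in H2O roots. The PEG roots library of replicate 3, with 114 reads where the others had 20 and 7, stood apart, and the log2 fold change of 0.73 (SE 0.57, edgeR adjusted p = 0.568) was -0.63 without it. The 9 photosynthesis genes had a summed 14.8 RPKM in that library, against 5.53 and 4.85 RPKM in replicates 1 and 2 of PEG roots. They had 15.5 to 24.8 RPKM in H2O roots, 20.8 and 32.7 RPKM in replicate 3 of NaOH and ABA roots, and at least 18228 RPKM in PEG shoots. For Sb03g036160 the H2O roots of the same experiment did not stand apart. Why the PEG roots library did was not tested. For none of the 3 genes did the effect of ABA differ from that of PEG in roots by the test (0 of 3 called, and 0 of 3 at an unadjusted p under 0.05 in edgeR and DESeq2, where 12.1% of the tested genes were called), with log2 differences of 1.10 (SE 0.63, edgeR adjusted p = 0.275) for Sb07g022530, -0.01 (SE 0.48) for Sb09g018640 and -1.25 (SE 0.84) for Sb03g036160. With a replicate block in edgeR, and with limma on log2(RPKM + 1), 1 of 3 had an unadjusted p under 0.05.

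PEG in shoots is given as a description with no test, because the study chose the list on these samples: its pathway analysis took the genes it found changed in PEG shoots. Sb03g036160 had 6.96, 2.50 and 6.94 RPKM in PEG shoots, against 0.195, 0.183 and 0.354 RPKM in H2O shoots. The corresponding reads were 201, 70 and 284 in PEG shoots, against 5, 5 and 13 in H2O shoots. The lowest library of PEG shoots was above every other library of the 24 but the PEG roots of replicate 3. The log2 fold change was 4.24 (SE 0.64), or 18.8-fold, and only 173 of the 22667 tested genes had a higher one.

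The other members went down in the same shoots. Sb09g018640 had 1.20, 1.35 and 1.85 RPKM in PEG shoots, against 4.63, 2.77 and 5.42 RPKM in H2O shoots, with a log2 fold change of -1.75 (SE 0.30). Sb07g022530 had 3.21, 4.92 and 4.20 RPKM in PEG shoots, against 7.48, 6.22 and 11.5 RPKM in H2O shoots, with a log2 fold change of -1.25 (SE 0.44). For both genes the groups did not overlap. The limits used above were passed by 2 of the 3 genes, Sb03g036160 upward and Sb09g018640 downward, where 4.73% of the tested genes passed them, and all 3 passed them with a replicate block. Since the list was drawn from this comparison, nothing is read from these counts. With library sizes alone, where the median of all tested genes shifted to 0.21, the log2 fold changes were 4.42, -1.53 and -1.03 for Sb03g036160, Sb09g018640 and Sb07g022530.

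Because the PEG shoots values chose the genes, the comparisons that contain them are also descriptions. The effect of PEG in roots minus that in shoots was -3.51 (SE 0.86) for Sb03g036160, 1.88 (SE 0.46) for Sb09g018640 and 1.85 (SE 0.63) for Sb07g022530 on the log2 scale. For Sb03g036160 it was -4.87 without the PEG roots library of replicate 3 and -3.04 without that of replicate 2. The effect of ABA minus that of PEG in shoots was -3.04 (SE 0.97) for Sb03g036160, 0.28 (SE 0.41) for Sb09g018640 and 0.27 (SE 0.62) for Sb07g022530. The limits were passed by 2 of the 3 genes in the first of these, where 4.08% of the tested genes passed (with a replicate block Sb07g022530 passed as well, at 1.76), and by no member in the second, where 1.79% passed, and nothing is read from these counts either.

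Roots and shoots of the same plants can also be set side by side in each of 12 pairs. Sb09g018640 was lower in roots in all 12 pairs, and the shoots were 1.21 to 2.11 times the roots in ABA or PEG plants except for 1 PEG pair at 3.92 times, against 4.62 to 8.26 times in the 6 control pairs. Sb07g022530 was higher in roots in 3 of 3 ABA pairs, by 1.47 to 4.44 times, and lower in roots in 6 of 6 control pairs. In PEG plants it was higher in roots in 2 of 3 pairs. Sb03g036160 was lower in roots in 3 of 3 PEG pairs, with shoots at 2.58 to 10.0 times the roots, and higher in roots in 6 of 6 control pairs, by 1.71 to 6.68 times. These ratios are of RPKM as deposited, without TMM scaling, and on that scale the median of all tested genes lies toward roots. In TMM-scaled reads, Sb07g022530 had 385, 294 and 239 in ABA roots (replicates 1, 2 and 3), against 374, 104 and 218 in ABA shoots. Its ABA pairs of replicates 1 and 3 were thus close to equal. For Sb03g036160 the TMM-scaled log2 ratio of roots to shoots was 0.53, 0.09 and 2.06 in the NaOH pairs. It was 1.12, 1.38 and 0.66 in the H2O pairs.

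**Figure D3:**
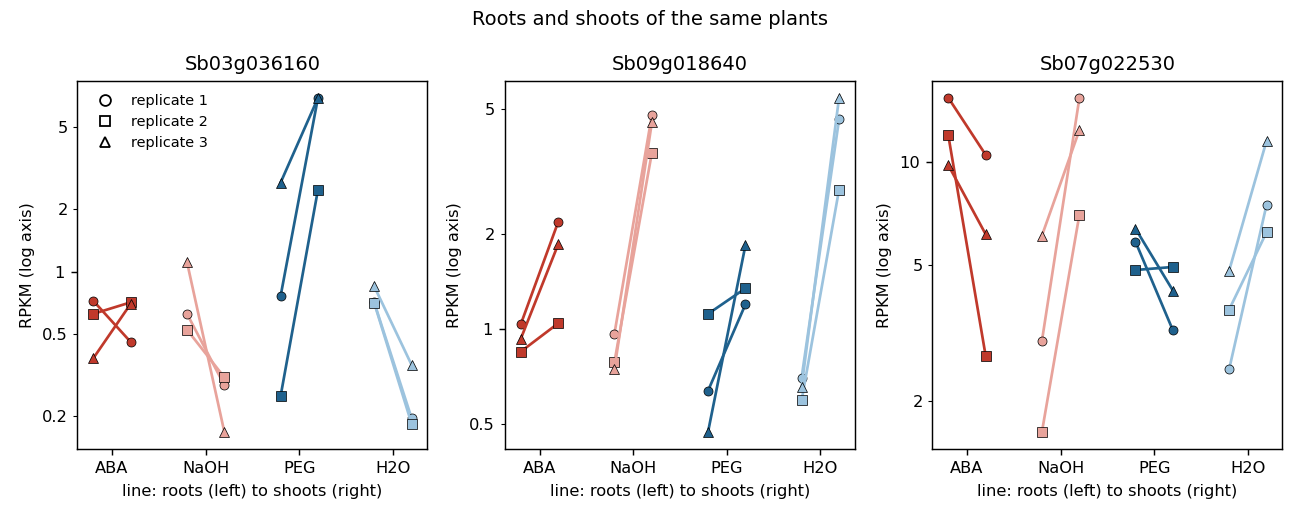
RPKM (log axis) in roots and shoots of the same plants, with a line for each of 12 pairs per gene and the marker giving the replicate. For Sb07g022530 all 3 lines of ABA plants fall from roots to shoots and all 6 lines of NaOH and H2O plants rise. The RPKM is as deposited, without TMM scaling.

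In the order of the 8 groups by mean RPKM, PEG shoots ranked first for Sb03g036160 and overlapped only with PEG roots, through replicate 3. Its other 7 groups lay at 1.23 RPKM or less, with NaOH and H2O shoots the lowest. For Sb09g018640, ABA shoots (1.70 ± 0.591) and PEG shoots (1.46 ± 0.34) overlapped with each other and lay below NaOH shoots (4.31 ± 0.602) and H2O shoots (4.27 ± 1.36 RPKM, SD, n = 3 each) without overlap. The 4 root groups of this gene, at 0.651 to 0.939 RPKM, came last and each overlapped with the next among them. For Sb07g022530, ABA roots ranked first at 12.4 ± 2.84 RPKM (SD, n = 3) as deposited. Every group overlapped with its neighbour in the order down to NaOH roots at 3.56 ± 2.29 RPKM. With RPKM scaled by TMM, Sb07g022530 had a mean of 11.1 in ABA roots, below NaOH shoots (16.7) and H2O shoots (11.9).

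The sum of the 3 genes describes how the mixture changed. It is not the total of the degradation genes, since it leaves out at least Sb03g003280, a cytokinin dehydrogenase gene described below. In roots Sb03g003280 had mean RPKM of 2.51 with ABA against 9.85 with NaOH, and 7.91 with PEG against 10.9 with H2O (not called). The 3-gene sum was 13.9 ± 3.06 RPKM in ABA roots, against 5.15 ± 2.56 RPKM in NaOH roots. It was 7.65 ± 1.71 RPKM in PEG roots, against 5.06 ± 1.21 RPKM in H2O roots (SD, n = 3 each). In shoots it was 8.76 ± 4.34 RPKM with ABA, against 16.1 ± 4.81 RPKM with NaOH, and 11.04 ± 2.13 RPKM with PEG, against 12.9 ± 4.10 RPKM with H2O. Sb07g022530 made up 89.0% of the sum in ABA roots, against 65.7% in NaOH roots. In PEG shoots Sb03g036160 made up 47.7% of it (28.5% to 61.2% over the libraries), against 1.88% in H2O shoots (1.59% to 2.04%). On this scale the sums in PEG and H2O shoots overlapped although the mixture of genes in them did not. The sums are of RPKM as deposited, without TMM scaling. With RPKM scaled by TMM, the means in PEG and H2O shoots were 6.74 and 0.345 for Sb03g036160 and 1.79 and 6.08 for Sb09g018640. For Sb07g022530 they were 4.99 and 11.9, so a like sum in these groups is not read as an unchanged total.

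**Figure D4:**
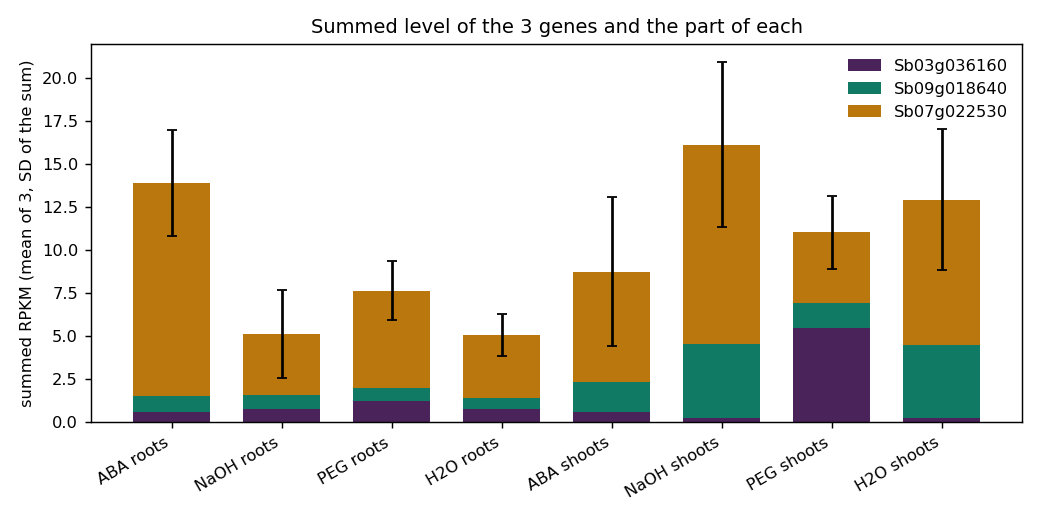
Mean RPKM of the 3 genes stacked for each of the 8 groups (vertical axis, linear from 0), with the SD of the sum over 3 libraries as the error bar. The bars of PEG shoots (11.04 RPKM) and H2O shoots (12.9 RPKM) are of like height on this scale, but Sb03g036160 forms 47.7% of the PEG bar and 1.88% of the H2O bar. The RPKM is as deposited, without TMM scaling.

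Across the 24 libraries, after each tissue's mean log2 level was subtracted, Sb09g018640 and Sb07g022530 varied together (Pearson r = 0.61) and Sb03g036160 varied against both (r = -0.73 with Sb09g018640 and -0.42 with Sb07g022530). The libraries share treatments and experiments, and they include the PEG and H2O shoots on which the study chose the genes. These values therefore describe the pattern only. The genes most like each member by the same measure were Sb10g001620 (r = 0.92), Sb06g032920 (0.92), Sb03g006690 (0.90), Sb04g033820 (0.90) and Sb05g001580 (0.88) for Sb03g036160. Without the PEG shoots libraries of replicates 1 and 3, the farthest from the median, their r was 0.73 to 0.82. For Sb09g018640 they were Sb08g020640 (0.90), Sb03g029590 (0.88), Sb07g029230 (0.88), Sb03g025440 (0.87), described by the study as similar to a legumain-like protease, and Sb02g005790 (0.87). For Sb07g022530 they were Sb04g028360 (0.90), described as similar to a WD-40 repeat protein, Sb03g010340 (0.90), Sb02g025420 (0.90), Sb02g003350 (0.89) and Sb02g025430 (0.89). Sb08g020640, named first for Sb09g018640, had a log2 fold change of 0 in ABA roots and in PEG roots. It had -2.16 in ABA shoots and -4.74 in PEG shoots.

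For the rest of the pathway, 10 further genes were taken from the descriptions in the study's supplement: a cytokinin dehydrogenase 1 gene, 3 cis-zeatin O-glucosyltransferase genes and 6 response regulator genes. Because the supplement lists genes that the study found changed in these samples, their counts and median fold changes are not independent evidence of a direction. In ABA roots, 7 of the 10 were called as lower and 0 as higher, where 8.21% of all tested genes were called as lower. In ABA shoots, 6 of the 10 were called as lower and 0 as higher, where 4.01% of all tested genes were called as lower. In PEG roots 0 of 10 were called, where 3.49% of all tested genes were called. At an unadjusted p under 0.05 there were 3 of 10 in edgeR and DESeq2 (4398 of all 22667 tested genes in edgeR), 5 in edgeR with a replicate block, 4 or 2 with limma on log2(RPKM + 1) or log2(RPKM + 0.1), and 3 in the exact test. In PEG shoots, where 4.73% of all tested genes were called, 1 of 10 fell, the response regulator gene Sb08g001140, with a log2 fold change of -1.08 (SE 0.23). Leaving out Sb06g024946, which is close to 0 in shoots, the median log2 fold change of the other 9 genes was -1.85 in ABA roots and -1.82 in ABA shoots, beside -0.02 and -0.03 over all tested genes. It was -0.19 in PEG roots and -0.33 in PEG shoots, beside a median of 0.00 over all tested genes. Since the genes were listed as changed, nothing is read from these medians. Sb04g022785 and Sb04g022780, which may count as 1 gene, both enter them.

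A further degradation gene, Sb03g003280 (chromosome 3, 3438676 to 3441140), described as a cytokinin dehydrogenase 1 precursor, moved the other way from Sb07g022530 in ABA roots. Degradation genes that the study did not list as changed could not be found from these descriptions. Sb03g003280 is therefore not taken to complete the family. It fell to 2.51 ± 0.668 RPKM in ABA roots, against 9.85 ± 3.23 RPKM in NaOH roots (SD, n = 3 each), a log2 fold change of -2.05 (SE 0.33). No p is given, because the gene comes from a list that the study found changed in these samples. Unlike Sb09g018640 and Sb07g022530 it was higher in roots than in shoots without stress, with 10.9 ± 1.78 RPKM in H2O roots and 0.46 ± 0.123 RPKM in H2O shoots (log2 fold change 3.97, SE 0.39). In shoots it had 0.452 ± 0.147 RPKM with ABA and 0.52 ± 0.0989 RPKM with NaOH, and 0.386 ± 0.28 RPKM with PEG and 0.46 ± 0.123 RPKM with H2O, and was not called in either. In PEG roots it had 7.91 ± 1.96 RPKM, against 10.9 ± 1.78 RPKM in H2O roots, and was not called.

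The 3 O-glucosyltransferase genes, whose products add a sugar to cis-zeatin, fell in ABA roots (3 of 3 called) and were not called in ABA shoots. In ABA roots 8.21% of all tested genes were called as lower. Sb06g012280 fell to 0.468 ± 0.17 RPKM in ABA roots, against 7.78 ± 2.33 RPKM in NaOH roots (log2 fold change -4.15, SE 0.32), and had 25.02 ± 2.42 RPKM in ABA shoots and 26.5 ± 3.07 RPKM in NaOH shoots (SD, n = 3 each). Sb06g024946 fell to 4 to 23 reads in ABA roots, against 102 to 311 reads in NaOH roots, and had no more than 2 reads in any shoot library. The 6 response regulator genes all fell in ABA shoots (6 of 6 called), where 4.01% of all tested genes were called as lower. In ABA roots 3 of 6 were called, and all 6 had log2 fold changes below 0 (-2.23 to -0.305). Since the genes of both families were listed as changed, nothing is read from these counts. Sb08g001140 was the most affected, with 1.081 ± 0.522 RPKM in ABA shoots, against 16.6 ± 0.298 RPKM in NaOH shoots (log2 fold change -4.01, SE 0.28). Sb05g002590 followed with 5.22 ± 0.757 RPKM in ABA shoots, against 25.1 ± 2.68 RPKM in NaOH shoots (log2 fold change -2.38, SE 0.20). The models Sb04g022785 and Sb04g022780, both described as response regulator 7, are adjacent on chromosome 4, so their reads cannot be cleanly separated and they may count as 1 gene.

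**Figure D5:**
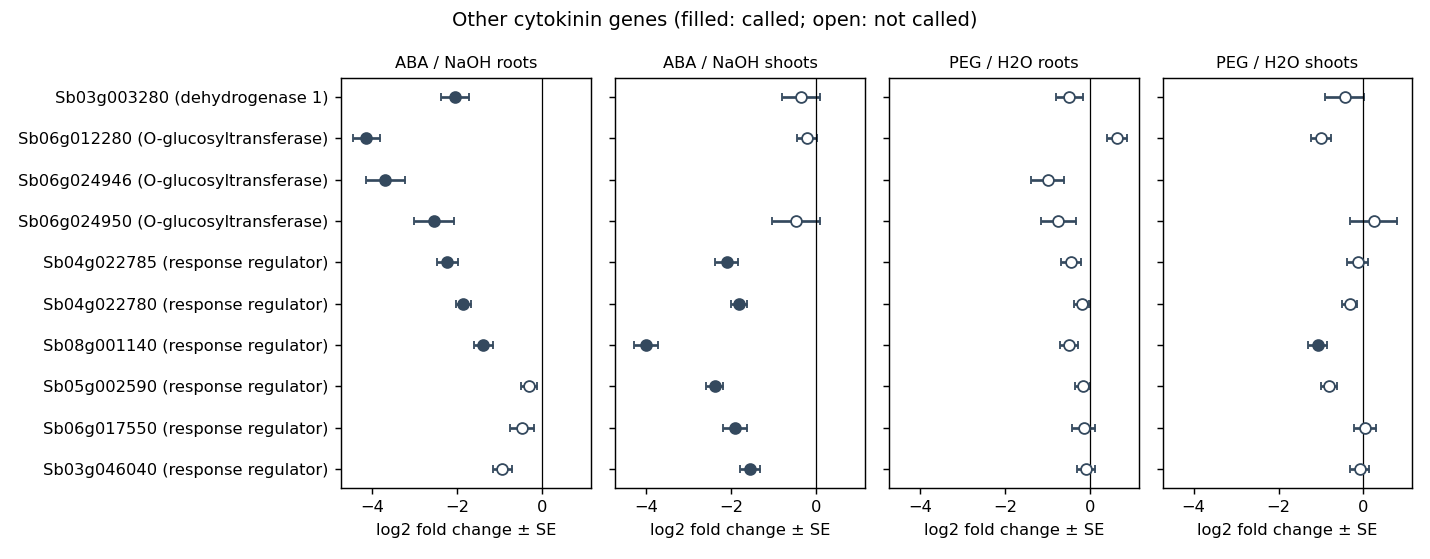
Log2 fold change ± SE (horizontal axes) of the 10 other cytokinin genes (rows) in the 4 treatment comparisons, with filled symbols for called genes. In ABA roots 7 symbols are filled and in ABA shoots 6, all to the left of 0; Sb06g024946 is left out of the shoot panels because it has no more than 2 reads in any shoot library.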

How the data were processed

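Transcripts of sorghum roots and shoots were measured in 24 libraries, grouped by treatment, tissue and replicate number as labelled. The authors sequenced poly-A RNA on a Genome Analyzer IIx, trimmed reads to 50 bases, aligned them to assembly sbi1 with ELAND_rna and counted them on Sbi1.4 exons with CASAVA 1.6, without regard to strand, after base calling with RTA 1.5 or 1.6. The submitters' notes also name edgeR. The strength of the NaOH control is given differently in the labels and in the paper and is not used. The NaOH shoots of replicate 2 were base-called with RTA 1.6, as was replicate 3, and its table carries a run date of its own.

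The raw count that the authors deposited holds aligned exon bases, not reads, and was divided by 50 and rounded to reads for the tests; 90.6% to 94% of the values above 0 are multiples of 50. The RPKM deposited by the authors was used for levels. The sequencing depth is a coverage signal in the deposited tables (bases over exon length), used for the depth limit. Exon lengths were read from the same tables.

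Tests were run with edgeR 4.0.16 in R 4.3.3, as a quasi-likelihood model (robust) in which the 24 libraries entered together and each of the 8 groups had its mean, after TMM scaling and edgeR's own removal of low counts, with Benjamini-Hochberg adjustment over 22667 genes. DESeq2 1.42.0, limma 3.58.1 and edgeR's exact test were alternatives, beside other scalings, filters and limits and the omission of replicates; the omission of single libraries was added after seeing the data. The procedure was tested on simulated data. The common biological coefficient of variation was 0.205, and counting error is of like size or larger where reads are few, as for Sb03g036160 outside PEG shoots (5 to 114 reads) and Sb09g018640 in roots (16 to 35 reads).

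The replicate numbers mark separate hydroponic experiments, by the study's methods, and roots and shoots of a number are the same plants. Within a tissue, libraries that share a number deviated from their group means with a mean correlation of 0.24 (36 pairs), so a replicate block was fitted as an alternative. The value for different numbers, -0.12 (72 pairs), follows largely from subtracting the group means and is not a separate comparison. Libraries of 1 group differed by more than sampling noise (chi-square per degree of freedom of at least 2.83), and each was counted as a replicate.

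The genes were those the study lists for cytokinins degradation. The neighbours were the 5 genes with the highest correlation over the 24 libraries, and the other cytokinin genes came from the study's descriptions, of which 1 was matched by its transcript identifier. The members and lists were chosen with earlier results of these data known. Gene or protein sequences were not used here.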

Additional observations from a re-analysis of the deposited data

Results flagged for a closer look

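The effect of ABA differed between tissues for 2 of the 3 genes by the interaction term, where 9.56% of the tested genes were called. For Sb07g022530 the effect in roots minus that in shoots was 2.68 on the log2 scale (SE 0.62, edgeR adjusted p = 0.00585), with 3 of 3 experiments positive. For Sb09g018640 it was 1.59 (SE 0.44, edgeR adjusted p = 0.0195), again with 3 of 3 experiments positive. Both calls were lost without replicate 1 (edgeR adjusted p = 0.0844 and 0.15), and that of Sb09g018640 without replicate 3 (edgeR adjusted p = 0.164).

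The effect of PEG on Sb07g022530 went upward in 3 of 3 experiments in roots and downward in 3 of 3 in shoots, a log2 difference of 1.85 (SE 0.63). This difference was not tested, since the study chose the gene on the PEG shoots.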

How the results depend on the processing

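The calls in ABA roots and in both tissue comparisons kept their count in every alternative except those named here. In ABA shoots 0 of 3 genes were called with limma on log2(RPKM + 1) or a depth limit of 5-fold, and 2 without the ABA shoots library of replicate 1. With the depth limit of 5-fold, 1 gene was called in PEG shoots and 1 in each tissue comparison, since Sb09g018640 does not reach that depth. For the effect of ABA minus that of PEG in shoots, DESeq2 and limma with either pseudocount called 1 gene in place of 0. For the effect of PEG in roots minus that in shoots, a fit of the compared libraries alone called 1 gene in place of 2.

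Leaving out whole replicates or single libraries gave 0 to 1 genes called in ABA roots, 1 to 2 in ABA shoots and 1 to 3 in PEG shoots. It gave 0 to 2 for the effect of ABA in roots minus shoots, 0 to 1 for ABA minus PEG in shoots and 0 to 3 for PEG in roots minus shoots. The same omissions gave log2 fold changes of -0.84 to 0.19 for Sb03g036160 in ABA roots. In PEG roots they gave -0.63 to 1.20 for Sb03g036160 and -0.34 to 0.42 for Sb09g018640. None of these were called in edgeR. For ABA minus PEG in roots, Sb03g036160 ranged from -1.95 to 0.70 and Sb09g018640 from -0.35 to 0.48, and in shoots Sb09g018640 ranged from -0.054 to 0.59 and Sb07g022530 from -0.24 to 0.69. The near-zero value of Sb09g018640 for ABA minus PEG in roots, -0.013, was 0.035 with upper-quartile factors, 0.014 in a fit of the compared libraries alone, 0.021 with limma on log2(RPKM + 1) and 0.064 on log2(RPKM + 0.1).

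With a replicate block, the log2 fold changes were 1.80 for Sb07g022530 in ABA roots, -1.49 for Sb09g018640 in ABA shoots and -1.18 for Sb07g022530 in PEG shoots, the last passing the limits only with the block and under several other alternatives. The block added Sb07g022530 to the effect of PEG in roots minus shoots (1.76) and changed no other call of a member. Scaling RPKM by TMM moved 8 of 12 shoot means and 1 of 12 root means by more than 1 SD. The cause of these shifts was not tested. Depth limits Sb03g036160 most, with 5 to 13 reads in H2O shoots, and Sb09g018640 in roots, with 16 to 35 reads.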
